A study of Solanum lycopersicum with 24 samples.

Results

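The invertases described here are 5 acid invertase genes of tomato (Solanum lycopersicum) and 1 gene for an invertase inhibitor. They were chosen by gene identifier, and the names were given with the identifiers: LIN5 (Solyc09g010080.3), LIN7 (Solyc09g010090.4), LIN6 (Solyc10g083290.4) and LIN8 (Solyc10g083300.2) for cell wall invertases, TIV1 (Solyc03g083910.4) for the vacuolar invertase, and Solyc12g099200.2 for the inhibitor. All 6 were found among the 35768 genes listed. Messenger RNA was sequenced from anthers of the dwarf cultivar Micro-Tom in 24 libraries, and each library pooled 6 anthers. LTMH plants were moved when they flowered to long-term mild heat, with 34 °C days, 28 °C nights and 68% relative humidity, whereas CT plants stayed at 25 °C by day, 19 °C by night and 50% relative humidity. Collection took place on day 4 for tetrad anthers, on day 6 for anthers with free microspores and on day 8 for those with polarized microspores. Each of the 3 stages has an LTMH and a CT group, which makes 6 groups of 4 libraries. Humidity changed together with temperature, so the 2 cannot be told apart. Each stage had its own collection day, so stage cannot be told apart from day or, in LTMH, from length of heat. The study concerns pollen abortion under prolonged high temperature.

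Developing pollen receives its carbon from the surrounding anther tissue, largely as sucrose. Cell wall invertases split sucrose into glucose and fructose outside the cell, which keeps sucrose flowing towards the tissue that uses it, and vacuolar invertases do the same inside the vacuole. Small inhibitor proteins bind acid invertases and lower their activity without changing their mRNA. In tobacco, loss of an anther cell wall invertase blocks pollen development. These data hold mRNA only and give no enzyme activity or sugar content.

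Libraries held between 15657765 and 22987661 reads. Levels are given as deposited FPKM, read counts scaled to gene length and library total, which allows comparison between genes. Tests were run on counts with edgeR, whose TMM factors averaged 1.02 in LTMH and 0.915 in CT at the tetrad stage, 1.03 in LTMH and 0.984 in CT at the free microspore stage, and 1.03 in LTMH and 1.02 in CT at the polarized microspore stage. Tested fold changes at the tetrad stage are therefore lower than the FPKM values alone give. Whether replicate libraries stem from different plants is not labelled, and the p-values reflect only how far these libraries vary. Tetrad CT replicates 1 and 2 were the most alike pair, with a chi-square of 4.43 per degree of freedom, against 35.8 to 52.5 for the other tetrad CT pairs. Polarized microspore CT replicate 4 stood apart. In it 4.37% of the 21429 tested genes lay far from the other 3 libraries of the group by Dixon's gap criterion, the highest share of the 24 libraries, against 0.859 to 1.53% in the other 3. It also had the highest level of LIN5, LIN7, LIN6, TIV1 and the inhibitor in its group, so the results it touches are given with and without it where a value is moved or a call changes. The anther label was not checked against marker genes, because the files and the reference table pair no identifier with a marker name.

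LIN5 and TIV1 supplied nearly all of the summed FPKM of these 5 invertase genes. Other invertase genes were not counted in this sum. Summed over the 5 invertases, LTMH libraries averaged 78.1 ± 12.9 FPKM at the tetrad, 109 ± 9.61 FPKM at the free microspore and 168 ± 21.6 FPKM at the polarized microspore stage (SD, n = 4 each). CT libraries averaged 71.7 ± 8.93, 100.5 ± 8.54 and 157.5 ± 43.4 FPKM at these stages (SD, n = 4 each), with 136 ± 4.92 FPKM at the last stage without replicate 4 (SD, n = 3). LIN7 made up 1.57 to 3.99% of the summed FPKM in LTMH libraries and 1.01 to 6.58% in CT libraries. LIN6 and LIN8 together stayed below 1% in every library, at most 0.548% in LTMH and 0.517% in CT. In a whole anther, fewer cells of a type and less RNA per cell cannot be told apart.

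**Figure D1:**
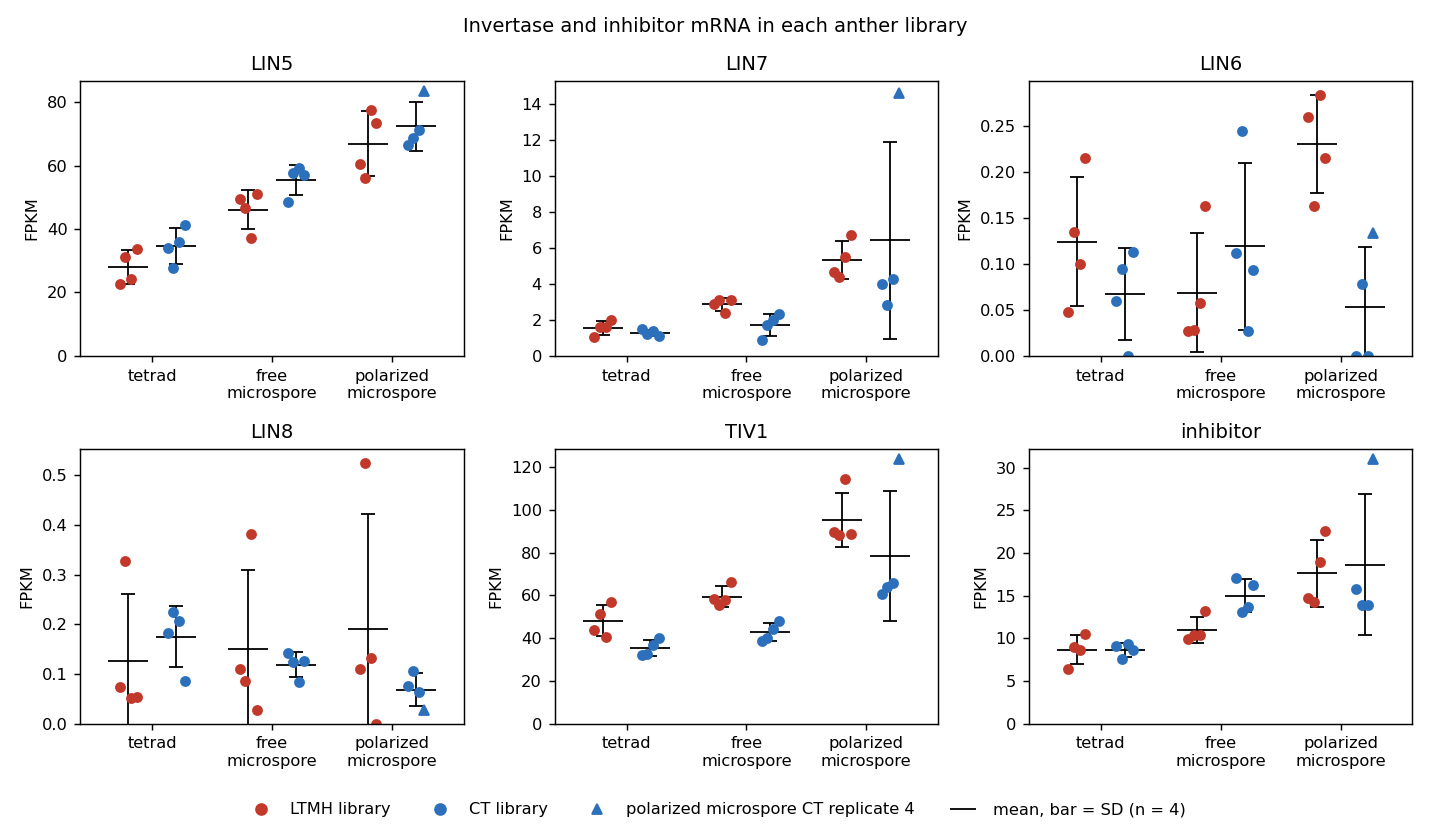
FPKM of the 6 genes (vertical axes, each with its own scale) in the 24 libraries at the 3 stages (horizontal axes), LTMH libraries left of CT libraries, with the mean and SD of each group of 4 (bars cut at 0). With all libraries kept, the group means of LIN5, LIN7, TIV1 and the inhibitor rise with each stage in LTMH and in CT. Not every step was called. Polarized microspore CT replicate 4, drawn as a triangle, lies at 14.6 FPKM for LIN7 and 124 FPKM for TIV1. Without that library the inhibitor mean in CT goes from 15.0 FPKM in free microspore anthers to 14.5 FPKM in polarized microspore anthers.

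LIN5 is the cell wall invertase best known from tomato flowers and fruit, where it is tied to fruit sugar content. At the tetrad stage its level was 22.7, 31.1, 24.2 and 33.8 FPKM in LTMH libraries, against 33.9, 27.8, 35.8 and 41.3 FPKM in CT libraries. Both of the lowest libraries were LTMH and the 3 highest were CT, with some overlap. LIN5 fell under LTMH at this stage to 0.717 of the CT level (log2 change -0.48 ± 0.13 SE, edgeR adjusted p = 0.0142). Among the 4 tested members 1, LIN5, was called lower, against 12.9% of all tested genes called lower and 21.2% called in either direction. The call was lost in limma on log2(FPKM + 1), at a log2 change of -0.31 with an adjusted p of 0.101, and in a fit of the 8 tetrad libraries alone, at -0.43 with an adjusted p of 0.0747. The range of adjusted p over all alternatives was 0.00588 to 0.101. The log2 changes of all genes were shifted by a median of 0.15 in limma on log2(FPKM + 1), relative to edgeR.

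At the free microspore stage LIN5 had 49.4, 46.7, 37.3 and 51.1 FPKM in LTMH libraries, against 48.6, 57.6, 59.2 and 56.9 FPKM in CT libraries. CT replicate 1 lay among the LTMH libraries and the other 3 CT libraries lay above all of them. The log2 change was -0.33 ± 0.13 SE and was not called (edgeR adjusted p = 0.120, range over the alternatives 0.091 to 0.305). At the polarized microspore stage LIN5 had 60.5, 56.1, 77.5 and 73.5 FPKM in LTMH libraries, against 66.4, 68.6, 71.1 and 83.6 FPKM in CT libraries. The groups overlapped widely, and the log2 change of -0.13 had a 95% interval of -0.41 to 0.14 (edgeR adjusted p = 0.540). Without CT replicate 4 it was -0.04 (interval -0.32 to 0.25). Averaged over the 3 stages, LIN5 was lower in LTMH by 19.6%, with a fold of 0.804 (log2 change -0.32 ± 0.08 SE, edgeR adjusted p = 0.00277). Without polarized microspore CT replicate 4 this mean was -0.28 (edgeR adjusted p = 0.00531).

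LIN7 is known in tomato as a cell wall invertase of stamens and pollen. At the tetrad stage it had 1.07, 1.62, 1.61 and 2.01 FPKM in LTMH libraries, against 1.49, 1.20, 1.38 and 1.13 FPKM in CT libraries. LTMH replicate 1 was the lowest of the 8 and the other 3 LTMH libraries were the highest, and the log2 change of 0.10 had a wide 95% interval of -0.74 to 0.95 (edgeR adjusted p = 0.882). In free microspore anthers it had 2.89, 3.09, 2.37 and 3.11 FPKM in LTMH libraries, against 0.897, 1.73, 1.98 and 2.32 FPKM in CT libraries. Every LTMH library lay above every CT library in FPKM, by a narrow margin that closed with TMM scaling. Among all tested genes, 13% had no overlap in FPKM at this stage and 9.17% had all LTMH libraries above. The fold was 1.59 with a 95% interval of 0.902 to 2.79, and it was not called (log2 change 0.66 ± 0.39 SE, edgeR adjusted p = 0.319). No member was called at this stage, where 8.82% of tested genes were called. Unadjusted edgeR p was below 0.05 for LIN5, TIV1 and the inhibitor, and DESeq2 called none of the 4. Of the 21429 tested genes, 5057 had an unadjusted edgeR p below 0.05 at this stage, and DESeq2 called 2453.

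At the polarized microspore stage the LIN7 result rested on 1 library. Its level was 4.65, 4.41, 5.52 and 6.76 FPKM in LTMH libraries, against 4.01, 2.85, 4.30 and 14.6 FPKM in CT libraries. The first 3 CT libraries lay below every LTMH library, and CT replicate 4 lay above all others at 3.93 times the mean of its group mates. With it the log2 change was -0.31 ± 0.37 SE (edgeR adjusted p = 0.616), and without it 0.52 ± 0.24 SE, a fold of 1.43 with adjusted p = 0.138. Averaged over the stages the log2 change was 0.15 ± 0.22 SE (edgeR adjusted p = 0.621) with that library. Without it LIN7 was called, at 1.35-fold higher in LTMH (log2 change 0.43 ± 0.14 SE, edgeR adjusted p = 0.0169), as were 37.1% of all genes.

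TIV1 encodes the vacuolar acid invertase, known in tomato fruit for setting the balance of sucrose and hexoses. At the tetrad stage it had 44.0, 51.3, 40.8 and 57.1 FPKM in LTMH libraries, against 32.3, 32.6, 37.0 and 40.1 FPKM in CT libraries. The groups did not overlap in FPKM, as for 26.5% of tested genes, but did overlap with TMM scaling, and the log2 change of 0.28 ± 0.17 SE was not called (edgeR adjusted p = 0.262). In free microspore anthers it had 58.2, 55.5, 57.8 and 66.4 FPKM in LTMH libraries, against 38.9, 40.2, 44.3 and 48.2 FPKM in CT libraries. All LTMH libraries lay above all CT libraries on both scales, as did 9.17% of tested genes in FPKM and 6.72% with TMM scaling. The fold was 1.32 with a 95% interval of 1.03 to 1.70 (log2 change 0.40 ± 0.17 SE, edgeR adjusted p = 0.153). A fit of these 8 libraries alone called TIV1 higher, at a log2 change of 0.42 and an adjusted p of 0.0403. The other alternatives did not call it, with adjusted p up to 0.274.

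At the polarized microspore stage TIV1 had 89.7, 88.1, 114 and 88.8 FPKM in LTMH libraries, against 60.7, 63.8, 65.6 and 124 FPKM in CT libraries. CT replicate 4 was the highest of the 8 and the other 3 CT libraries were the lowest. With all libraries the log2 change was 0.26 ± 0.17 SE and not called (edgeR adjusted p = 0.329), and no member was called where 19% of all tested genes were. None of the 4 members had an unadjusted edgeR p below 0.05 there, and DESeq2 called none. Of the 21429 tested genes, 6803 had such a p at this stage, and DESeq2 called 4700. Without CT replicate 4, TIV1 was 1.51-fold higher in LTMH (log2 change 0.59 ± 0.10 SE, edgeR adjusted p = 0.000455), the 1 member called beside 18.6% of all genes. Averaged over the stages TIV1 rose in LTMH by 24.2% with all libraries (log2 change 0.31 ± 0.10 SE, edgeR adjusted p = 0.0175), and the log2 change was 0.42 without CT replicate 4 (edgeR adjusted p = 7.49e-06). TIV1 and LIN5 were thus 2 of 4 members called for the mean over stages, where 36.9% of all tested genes were called.

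The inhibitor had levels between those of LIN5 and LIN7. At the tetrad stage it had 6.45, 9.02, 8.66 and 10.6 FPKM in LTMH libraries, against 9.12, 7.54, 9.30 and 8.66 FPKM in CT libraries. The groups overlapped, and the log2 change was -0.17 ± 0.22 SE (edgeR adjusted p = 0.630). In free microspore anthers it had 9.92, 10.3, 10.4 and 13.2 FPKM in LTMH libraries, against 17.1, 13.03, 13.7 and 16.3 FPKM in CT libraries. LTMH replicate 4 reached into the CT range in FPKM, and with TMM scaling all LTMH libraries lay below all CT libraries, as for 6.16% of tested genes. The fold was 0.696 with a 95% interval of 0.508 to 0.955 (log2 change -0.52 ± 0.22 SE, edgeR adjusted p = 0.145). At the polarized microspore stage it had 14.7, 14.3, 18.9 and 22.6 FPKM in LTMH libraries, against 15.8, 13.9, 13.9 and 31.0 FPKM in CT libraries. The highest value belonged again to CT replicate 4. The log2 change was -0.11 ± 0.21 SE (edgeR adjusted p = 0.779) with that library and 0.27 ± 0.15 SE (edgeR adjusted p = 0.235) without it. The mean over stages was -0.27 ± 0.13 SE and not called (edgeR adjusted p = 0.104), and it was -0.14 ± 0.09 SE without that library (edgeR adjusted p = 0.215).

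**Figure D2:**
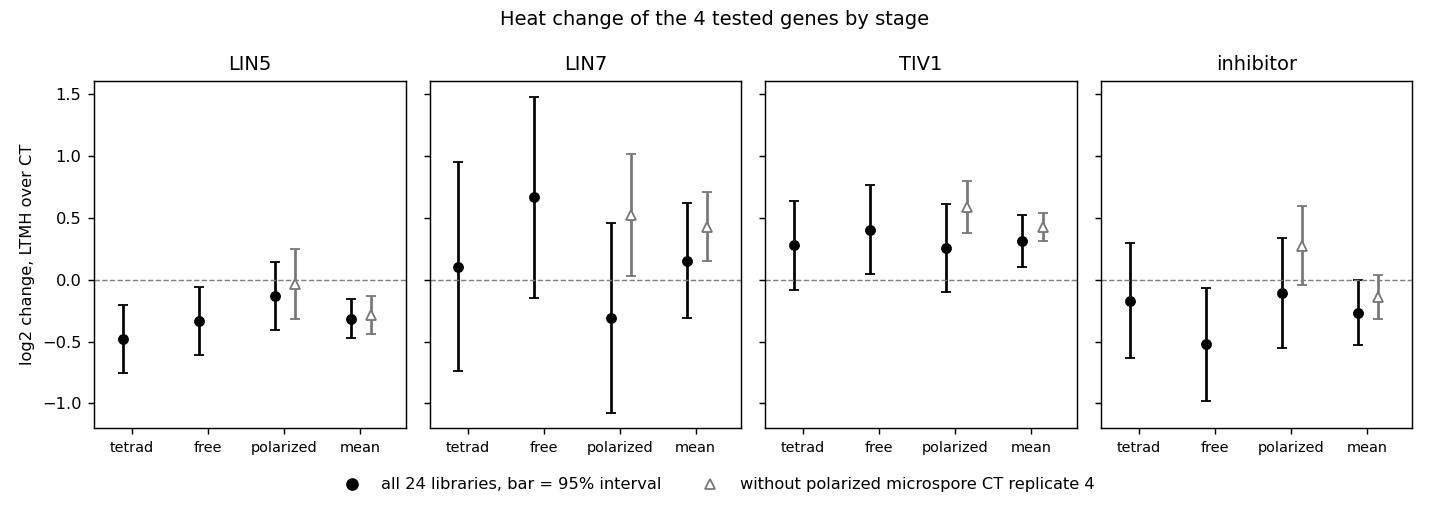
Log2 change of LTMH over CT (vertical axis) of the 4 tested genes at each stage and as the mean of the 3 stages (horizontal axis), from edgeR with 95% intervals, with all libraries (filled) and without polarized microspore CT replicate 4 (open). LIN5 points lie below 0 and TIV1 points above 0 at every stage, and the LIN7 point at the polarized microspore stage is -0.31 with that library and 0.52 without it.

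LIN6, known as a cell wall invertase that hormones and stress induce in other tomato tissues, and LIN8 were close to undetected. LIN6 had 99 reads and LIN8 118 reads over all 24 libraries, and neither passed the filter on low counts, so 4 of the 6 members were tested across all genes. At the polarized microspore stage LIN6 had 12, 6, 11 and 8 reads in LTMH libraries, against 0, 3, 0 and 5 reads in CT libraries. The groups did not overlap, by a margin of 1 read. Among tested genes 25.1% had no overlap at this stage and 12.9% had all LTMH libraries above. A count of 0 allows up to 0.0745 FPKM in CT replicate 1 and 0.0955 FPKM in CT replicate 3, where the LTMH libraries had 0.163 to 0.285 FPKM. The summed reads gave a ratio of 4.29 between LTMH and CT, with a 95% interval of 1.97 to 10.7 that covers counting error only. CT replicate 4 held 5 of the 8 CT reads, and without it the ratio was 8.53 (interval 2.70 to 43.3) from 3 CT reads. The two-sided exact permutation p was 0.0286, the smallest that 4 against 4 can give, and 0.172 when adjusted over the 6 tests of these 2 genes. Without the filter edgeR gave an adjusted p of 0.0871. LIN6 had 19 reads in LTMH and 9 in CT at the tetrad stage, and 10 in LTMH and 16 in CT at the free microspore stage, with overlapping libraries (exact permutation p = 0.343 at both stages).

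LIN8 reads were spread unevenly over the LTMH libraries. It had 3, 12, 2 and 2 reads in tetrad LTMH libraries, against 6, 7, 7 and 3 reads in CT libraries. It had 4, 3, 13 and 1 reads in free microspore LTMH libraries, against 5, 4, 3 and 4 reads in CT libraries. It had 5, 19, 5 and 0 reads in polarized microspore LTMH libraries, against 3, 4, 2 and 1 reads in CT libraries. In each LTMH group a single library held most of the reads, and the groups overlapped at every stage. The exact permutation p was 0.400 for tetrad anthers, 0.943 for free microspore anthers and 0.400 for polarized microspore anthers. At these counts a change in LIN8 was not detectable.

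The effect of heat was not shown to differ between stages for any of the 4 tested members. The lowest unadjusted edgeR p, 0.0773, was that of LIN5 between the polarized microspore and tetrad stages (log2 difference 0.35, 95% interval -0.04 to 0.74, adjusted p = 0.287). LIN7 followed with 0.0840 between the polarized and free microspore stages (log2 difference -0.97, interval -2.09 to 0.14, edgeR adjusted p = 0.656). Without polarized microspore CT replicate 4 that difference was -0.15 for LIN7 (interval -0.83 to 0.54), and it was 0.80 for the inhibitor (interval 0.36 to 1.24, edgeR adjusted p = 0.167), where all libraries gave 0.41. Between the polarized microspore and tetrad stages it was then 0.44 for LIN5 (interval 0.055 to 0.83, edgeR adjusted p = 0.163). For TIV1 it was 0.31 (interval 0.028 to 0.60, edgeR adjusted p = 0.179), where all libraries gave -0.022. The intervals of the inhibitor, LIN5 and TIV1 without that library do not include 0, and their unadjusted p was below 0.05. How many of all genes had such a p in that fit was not counted. With all libraries 4660 of the 21429 tested genes had one between the polarized microspore and tetrad stages. Between the polarized and free microspore stages 1794 had one. No member was called without that library either. There 5.01% of all genes were called between the polarized microspore and tetrad stages and 0.0554% between the polarized and free microspore stages. Of all tested genes 4.09% were called for a difference between the polarized microspore and tetrad stages. The share was 0% for both steps between neighbouring stages, where 2201 and 1794 genes had an unadjusted p below 0.05 and DESeq2 called 105 and 102. With all libraries no member had an unadjusted edgeR p below 0.05 in these 3 comparisons, and DESeq2 called none of the 4. Between the polarized microspore and tetrad stages DESeq2 called 1723 of all genes.

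All 4 tested genes increased from the tetrad to the polarized microspore stage at both temperatures. In LTMH all 4 were called higher, against 25.5% of all tested genes called higher, and in CT all 4 were called higher, against 31%. LIN7 had the steepest increase, 3.36-fold in LTMH (95% interval 1.92 to 5.90, edgeR adjusted p = 0.000835) and 4.48-fold in CT (2.52 to 7.97, adjusted p = 8.45e-05). In CT it was 2.52-fold without replicate 4 of the polarized microspore stage (edgeR adjusted p = 0.000104). LIN5 increased 2.38-fold in LTMH (edgeR adjusted p = 5.63e-07) and 1.87-fold in CT (adjusted p = 6.06e-06), or 1.75-fold in CT without that library. TIV1 increased 1.96-fold in LTMH (edgeR adjusted p = 9.51e-05) and 1.99-fold in CT (adjusted p = 4.39e-05), the last of which was 1.58-fold without that library. The inhibitor increased 2.02-fold in LTMH (edgeR adjusted p = 0.000636) and 1.94-fold in CT (adjusted p = 0.000789), and 1.48-fold in CT without it. All 4 stayed called in CT without that library, beside 60.8% of all genes called in either direction.

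The steps between neighbouring stages are given for each temperature, and no test compared one gene with another. From the tetrad to the free microspore stage LIN5 was the 1 of 4 called higher in LTMH, at 1.65-fold (edgeR adjusted p = 0.000936), beside 8.95% of all genes called higher. LIN7 had larger fitted changes in LTMH that were not called, at a log2 change of 0.86 for this step (edgeR adjusted p = 0.120) and 0.89 for the next (adjusted p = 0.0877). In CT LIN5 at 1.49-fold (edgeR adjusted p = 0.00189) and the inhibitor at 1.61-fold (adjusted p = 0.0179) were called, 2 of 4 beside 19.1%. From the free to the polarized microspore stage LIN5 at 1.44-fold, TIV1 at 1.60-fold and the inhibitor at 1.60-fold were called higher in LTMH, 3 of 4 beside 12.1% (edgeR adjusted p = 0.00591, 0.00666 and 0.0259). The call of the inhibitor was lost when any 1 of 5 of these LTMH libraries was left out, with log2 changes of 0.55 to 0.67 and adjusted p up to 0.0857, and its CT call at the earlier step was lost without tetrad CT replicate 2 (log2 change 0.63, edgeR adjusted p = 0.0552). In CT LIN7 at 3.63-fold and TIV1 at 1.77-fold were called, 2 of 4 beside 19.6% (edgeR adjusted p = 0.000879 and 0.000848). Without polarized microspore CT replicate 4 these were 2.04-fold and 1.40-fold (edgeR adjusted p = 0.00298 and 0.000999), beside 35.6% of all genes called in either direction. LIN5 in this CT step lay just outside the threshold, at 1.26-fold with an edgeR adjusted p of 0.0522. The inhibitor had a log2 change of 0.27 with replicate 4 and -0.12 without it in the same step, and was called in neither. That the temperatures differ in any of these steps was not shown by the tests of the difference given above.

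**Figure D3:**
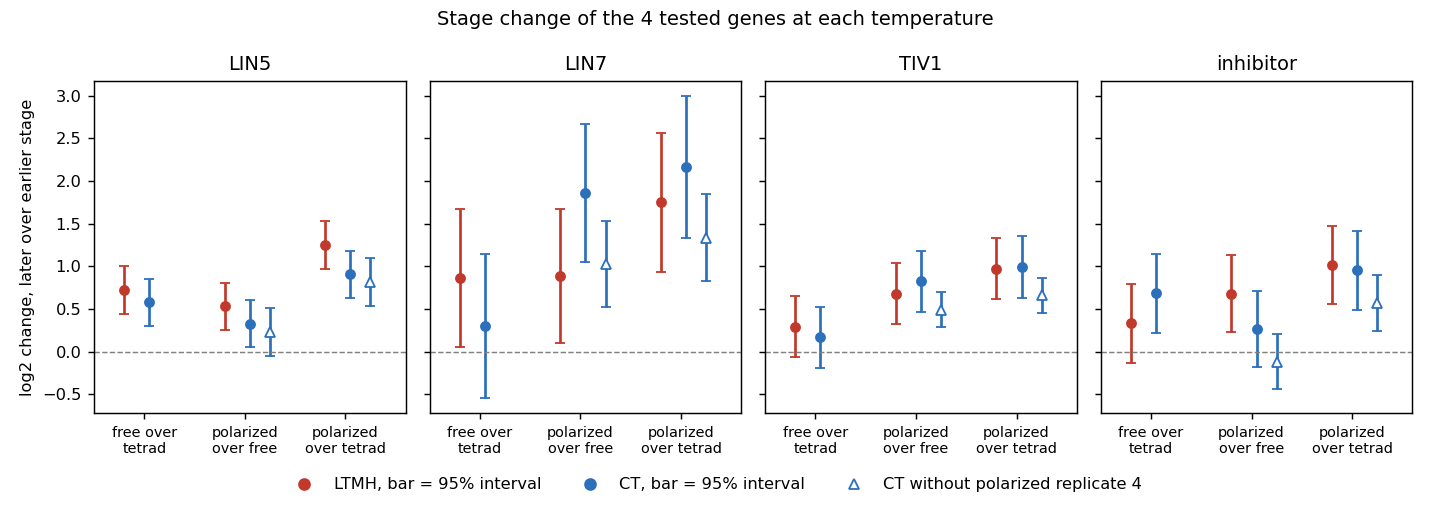
Log2 change of the later over the earlier stage (vertical axis) for the 4 tested genes and the 3 pairs of stages (horizontal axis) in LTMH and CT, from edgeR with 95% intervals, and in CT without polarized microspore replicate 4 (open). All intervals for the polarized microspore over the tetrad stage lie above 0, with the largest changes for LIN7.

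Ordered by mean FPKM, LIN5 was lowest in tetrad LTMH, followed by tetrad CT, free microspore LTMH, free microspore CT, polarized microspore LTMH and polarized microspore CT (27.9, 34.7, 46.1, 55.6, 66.9 and 72.4 FPKM). Each neighbouring pair in that order overlapped. TIV1 instead ran from tetrad CT through free microspore CT, tetrad LTMH, free microspore LTMH and polarized microspore CT to polarized microspore LTMH (35.5, 42.9, 48.3, 59.5, 78.5 and 95.2 FPKM). All TIV1 neighbours again overlapped in FPKM, but with TMM scaling tetrad LTMH lay wholly below free microspore LTMH. LIN7 was lowest in tetrad CT, then tetrad LTMH, free microspore CT, free microspore LTMH, polarized microspore LTMH and polarized microspore CT (1.30, 1.58, 1.73, 2.87, 5.33 and 6.44 FPKM). For LIN7 free microspore LTMH was separated from both of its neighbours in FPKM and the other pairs overlapped. With TMM scaling it overlapped free microspore CT. The inhibitor ran from tetrad CT and tetrad LTMH to free microspore LTMH, free microspore CT, polarized microspore LTMH and polarized microspore CT (8.66, 8.67, 10.97, 15.0, 17.6 and 18.6 FPKM), with overlap between all neighbours. With TMM scaling its tetrad groups changed places, at 9.49 FPKM in CT and 8.44 FPKM in LTMH. On that scale its free microspore LTMH libraries lay above those of tetrad LTMH and below those of free microspore CT. Without replicate 4, polarized microspore CT averaged 68.7 FPKM for LIN5, 3.72 for LIN7, 63.4 for TIV1 and 14.5 for the inhibitor, which places it below polarized microspore LTMH for LIN7, TIV1 and the inhibitor. For the inhibitor it then also lay below free microspore CT.

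Ratios within a library do not depend on how libraries are scaled, and they are given as a description without a test. How many other pairs of genes have ratios that separate LTMH from CT as far was not examined. The ratio of TIV1 to LIN5 FPKM was 1.94, 1.65, 1.69 and 1.69 in tetrad LTMH libraries, against 0.953, 1.17, 1.03 and 0.971 in tetrad CT libraries. It was 1.18, 1.19, 1.55 and 1.30 in free microspore LTMH libraries, against 0.801, 0.698, 0.748 and 0.848 in CT libraries. It was 1.48, 1.57, 1.48 and 1.21 in polarized microspore LTMH libraries, against 0.913, 0.929, 0.923 and 1.48 in CT libraries. LTMH values lay above the CT values at the first 2 stages. At the last stage only CT replicate 4 reached the LTMH values. TIV1 made up 62.0 ± 1.91% of the summed invertase FPKM in LTMH and 49.6 ± 2.21% in CT at the tetrad stage. It made up 54.8 ± 3.02% in LTMH and 42.7 ± 2.04% in CT at the free microspore stage, and 56.8 ± 2.92% in LTMH and 48.9 ± 4.58% in CT at the polarized microspore stage (SD, n = 4 each), or 46.6 ± 0.430% in CT without replicate 4 (SD, n = 3).

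The RefSeq annotation (assembly SLM_r2.1) places genes named LIN5 and LIN7 next to each other among protein-coding genes. It likewise places LIN8 next to Wiv-1, the gene matched to LIN6. All were matched here by name or synonym alone. LIN5 exceeded LIN7 in FPKM in every library, by a factor that was lower in LTMH at the first 2 stages. It was 15.0 to 21.3 in LTMH and 22.7 to 36.7 in CT at the tetrad stage, and 15.1 to 17.1 in LTMH and 24.6 to 54.2 in CT at the free microspore stage. At the polarized microspore stage it was 10.9 to 14.04 in LTMH and 16.5 to 24.1 in CT, except for 5.72 in CT replicate 4. The cell wall invertases together exceeded the inhibitor 3.00 to 3.70 times in LTMH and 3.89 to 4.92 times in CT at the tetrad stage. There the LTMH libraries lay below the CT libraries, and at the other stages the ranges overlapped (3.87 to 5.29 in LTMH and 2.92 to 4.58 in CT, then 3.57 to 4.46 in LTMH and 3.18 to 5.43 in CT). Reads that match related invertase genes alike could be shared between them, which was not tested.

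**Figure D4:**
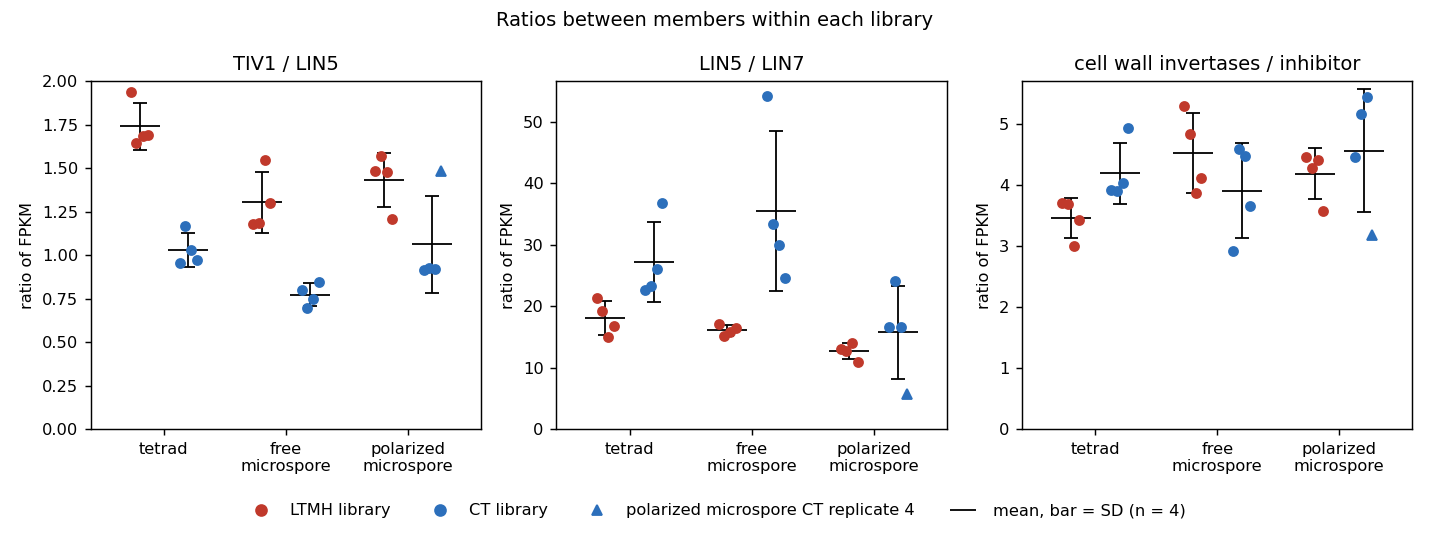
Ratios of FPKM within each library (vertical axes) at the 3 stages (horizontal axes), LTMH libraries left of CT libraries, with the mean and SD of each group of 4. The ratio of TIV1 to LIN5 lies higher in LTMH and that of LIN5 to LIN7 lower, with polarized microspore CT replicate 4 (triangle) at 1.48 and 5.72, apart from the other CT libraries.

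Polarized microspore CT replicate 4 differed from its group mates to unequal degrees over the family. It held 3.93 times their mean FPKM for LIN7, 2.13 times for the inhibitor, 1.96 times for TIV1 and 1.22 times for LIN5. Its reads numbered 579 for LIN7, against 171, 115 and 143 in the other 3 CT libraries. Its total of 18638171 reads lay within the range of the other 3, which was 15657765 to 20075897. Over the 24 libraries LIN7 and TIV1 were the most alike pair of members, with a Pearson correlation of log2 CPM of 0.920, or 0.893 without that library. The lowest value was 0.655 for LIN5 and TIV1 with all libraries, and 0.566 for TIV1 and the inhibitor without it. After the group means were taken out, all 6 pairs of tested members still varied together, with correlations of 0.559 to 0.785 over all libraries and 0.469 to 0.644 without that library. These values describe libraries that share groups and scaling.

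**Figure D5:**
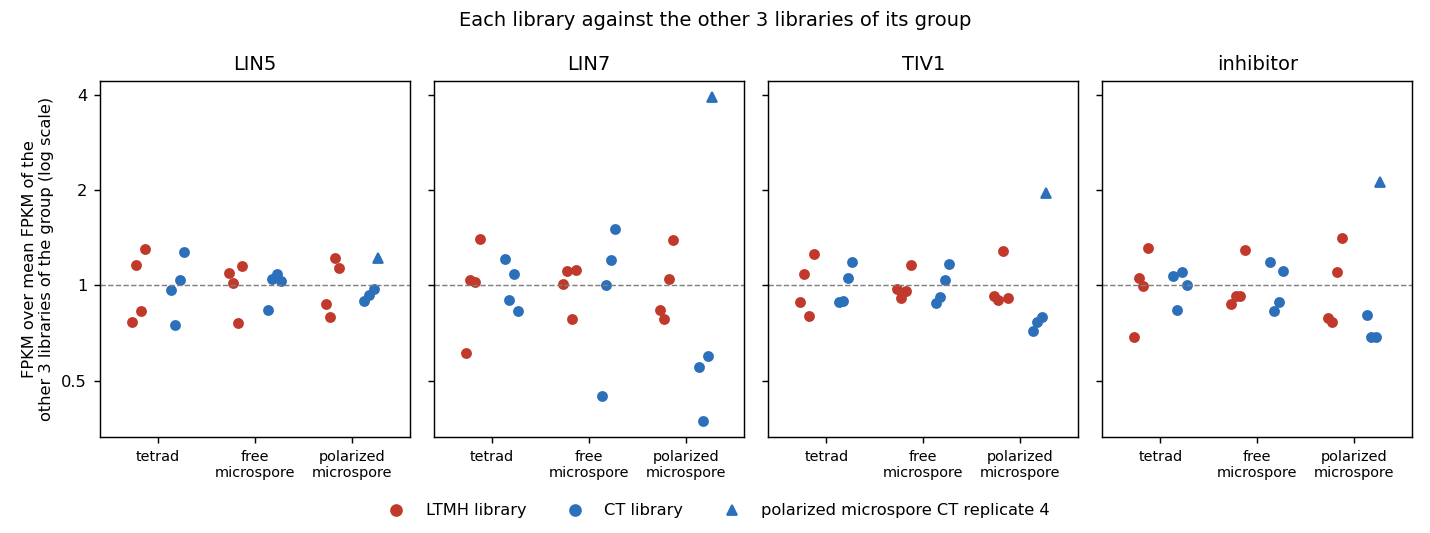
FPKM of each library over the mean FPKM of the other 3 libraries of its group (vertical axis, log scale) for the 4 tested genes at the 3 stages (horizontal axis), LTMH libraries left of CT libraries. Polarized microspore CT replicate 4 (triangle) lies at 3.93 for LIN7, 2.13 for the inhibitor, 1.96 for TIV1 and 1.22 for LIN5.

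The genes whose levels over the 24 libraries were most like those of each member are given by identifier, since the files pair none with a name. Over 19103 genes whose CPM averaged 1 or more, LIN5 was most like Solyc06g074120.3 and Solyc05g041200.3 (Pearson correlation of log2 CPM 0.953 and 0.949). LIN7 was most like Solyc02g093080.3 and Solyc11g069350.2 (0.952 and 0.943). TIV1 was most like Solyc09g030450.3 and Solyc06g074940.3 (0.975 and 0.968). The inhibitor had the weakest partners, Solyc09g020190.3 and Solyc06g071470.3 (0.899 and 0.896). All 8 correlations stayed at or above 0.870 without polarized microspore CT replicate 4. The points share their stage and temperature groups, and many genes change over stages.

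Other genes of sucrose use were taken as a list of 18 identifiers (sucrose transporters, sucrose synthases, hexokinases, fructokinases, a further acid invertase and a further inhibitor). Their names come from general knowledge and could not be checked in the files, so they are given as counts only. All 18 were tested. At the tetrad stage 1 was called higher and 5 lower in LTMH (median log2 change 0.011, against -0.013 over all genes tested), where 21.2% of all genes were called. At the free microspore stage 1 was called higher and 1 lower (median -0.025, against -0.017), where 8.82% of all genes were called, and at the polarized microspore stage 3 higher and 2 lower (median -0.040, against 0.0020), where 19% were called. Their changes ranged from -2.21 to 1.54 on the log2 scale at the tetrad stage. Those of the 4 tested members ranged from -0.48 to 0.28. A range widens with the number of genes, so the width of the 2 ranges is not compared.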

How the data were processed

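The authors deposited raw read counts per gene, and FPKM values beside them, for all 24 libraries. TopHat2 2.0.12 and HTSeq 0.6.1 appear in the submitters' processing notes, while the genome build is not given in the sources used here, nor is the annotation. The deposited FPKM equal the counts divided by a whole-base gene length and the library total (29041 genes, tolerance 0.01 base).

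The counts entered a robust quasi-likelihood fit of 6 groups in edgeR 4.0.16 under R 4.3.3, after filterByExpr (minimum count 10) and TMM scaling. Benjamini-Hochberg adjustment ran over 21429 genes, with calls below 0.05. Standard errors were derived from the F statistic. Other settings tried were scaling by median of ratios or upper quartile, DESeq2 1.42.0, limma 3.58.1 on log2(FPKM + 1) and on log2(FPKM + 0.1), no low-count filter, an average of 1 CPM as filter, a replicate block, fits restricted to the compared groups, and omission of single libraries. The fits were tested on simulated data. The 95% intervals of log2 and fold changes come from the edgeR fit and include the spread between libraries. Intervals of LIN6 and LIN8 read ratios and floors of 3 reads cover counting error only. The LIN6 and LIN8 ratios without polarized microspore CT replicate 4 and the overlap of TMM-scaled levels were added after seeing the data. That library was also singled out after seeing the data, the levels of these genes among them. Of the alternatives, 1 of 17 called TIV1 under heat at the polarized microspore stage, and 1 of 32 called the LIN7 mean over stages. Both of these calls came from the fit without that library.

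All 6 members are described. The genes named beside them are, for each tested member, the 2 with the highest Pearson correlation of log2 CPM (prior count 2) over the 24 libraries, among genes averaging 1 CPM or more. The members and lists were chosen with earlier results of these data known. Of the identifiers, 0 were found among the 41476 genes of the reference table.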

Additional observations from a re-analysis of the deposited data

Results flagged for a closer look

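In 6 of 36 groups of 4 libraries (6 genes in 6 groups), the highest library stood apart from the other 3 by Dixon's gap criterion. For independent normal values the criterion flags about 1 in 20 groups, counting gaps at either end. The genes share libraries, so the 36 groups are not independent. Over the 21429 tested genes, the share flagged in a single library ran from 0.775% (tetrad LTMH replicate 1) to 4.37% (polarized microspore CT replicate 4). Of the 6 flagged groups, 3 came from polarized microspore CT replicate 4, at 14.6 FPKM for LIN7 (next highest 4.30), 124 FPKM for TIV1 (next 65.6) and 30.95 FPKM for the inhibitor (next 15.8). TIV1 reached 114 FPKM in polarized microspore LTMH replicate 3 (next 89.7). The inhibitor reached 13.2 FPKM in free microspore LTMH replicate 4 (next 10.4). LIN8 reached 0.328 FPKM in tetrad LTMH replicate 2 (next 0.0733), from 12 reads.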

How the results depend on the processing

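Of 1040 repeats of the 52 log2 changes of the 4 tested genes, 997 kept their direction and side of the threshold, 9 lost a call, 13 gained one and 21 changed sign. The cause was not tested for any of them. The LIN5 change at the tetrad stage was not called in limma (-0.31 with a pseudocount of 1, -0.32 with 0.1) or in a fit of the compared groups (-0.43). LIN5 between the polarized and free microspore stages in CT was called with median-of-ratios scaling and DESeq2 (0.34 each), upper-quartile scaling (0.345), limma (0.37 and 0.38), the replicate block (0.32) and the compared groups (0.33), and was 0.23 to 0.38 with single libraries left out, called without polarized microspore CT replicate 1 (adjusted p = 0.0438) but not without any other (adjusted p = 0.19 without replicate 4). The fit of the compared groups also called LIN7 in LTMH between the free microspore and tetrad stages (0.85) and between the polarized and free microspore stages (0.89), and TIV1 under heat at the free microspore stage (0.42).

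With single libraries left out, the heat change at the polarized microspore stage was -0.56 to 0.52 for LIN7, 0.16 to 0.59 for TIV1 and -0.24 to 0.27 for the inhibitor, with the upper ends without CT replicate 4. For LIN7 limma with a pseudocount of 0.1 gave 0.019. The LIN7 mean over stages was 0.069 to 0.43. The inhibitor change was 0.55 to 0.77 between the polarized and free microspore stages in LTMH, -0.12 to 0.40 in CT, and 0.62 to 0.74 between the free microspore and tetrad stages in CT. Differences of the heat change between the polarized microspore and tetrad stages were -0.67 to 0.42 for LIN7, -0.12 to 0.31 for TIV1 and -0.069 to 0.44 for the inhibitor, and between the polarized and free microspore stages -0.25 to 0.19 for TIV1. The first of these was 0.021 for TIV1 with the replicate block and, for the inhibitor, -0.0085 and -0.0043 in limma. The mean inhibitor level in tetrad CT was 9.49 FPKM with TMM scaling.

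Replicate numbers were not shown to pair the libraries, which so few pairs cannot settle. Within a stage, 3 of 12 pairs of LTMH and CT libraries deviated together with a correlation above 0.1, and 3 of 12 correlated best with their own number. Over all pairs of groups these counts were 15 and 20 of 60, with correlations of -0.38 to 0.492. Over all genes, 4537 calls at the tetrad stage compare with 2973 without LTMH replicate 4, and 1891 at the free microspore stage with 506 in the fit of the compared groups. Upper-quartile scaling made 55.6% of tetrad calls higher and limma 71.3%. LIN6 and LIN8 had few reads, at most 19 in a library.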
